A study of Mus musculus with 4 samples.

Results

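The chromosome 8 domain described here comprised every peak of the deposited peak count table that started between positions 10000000 and 12000000 of mouse chromosome 8 (build mm10), which gave 218 of 87948 peaks. The stretch was picked because peaks around the gene Rab20 had higher counts in the mutant libraries, that is, on the mutant against wild type contrast itself. Mutant against wild type values of its peaks, and the calls from a fit over the whole table, are therefore given as descriptions and not as a test of the domain. Open chromatin was profiled by ATAC-seq (insertion of sequencing adapters by a transposase where DNA is exposed) in 2 Carm1 mutant and 2 wild-type libraries of heart tissue from mice at postnatal day 14. The design text calls the hearts neonatal. Carm1 is an enzyme that methylates arginines of histones and of other nuclear proteins and assists transcription factors. The labels give the genotypes as Carm1 mutant and wild type and name no allele, promoter or Cre driver, nor do they say whether a library holds 1 heart or several. They also do not say that replicates came from separate animals, so the spread between libraries may be partly technical.

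The domain holds 13 protein-coding genes. Rab20 encodes a small GTPase of endosomes and phagosomes and is counted among the genes that hypoxia-inducible factors switch on. Its neighbours Col4a1 and Col4a2 start back to back and encode the main chains of type IV collagen, the network-forming collagen of basement membranes around cardiomyocytes and vessels. Irs2 encodes an adaptor of the insulin and IGF receptors. Arhgef7 encodes beta-PIX, an exchange factor that activates Rac and Cdc42 at focal adhesions. Ing1 encodes a chromatin reader of the Sin3 deacetylase complex, Cars2 a mitochondrial cysteinyl-tRNA synthetase and Naxd an enzyme that repairs damaged NAD(P)H. Myo16 encodes an unconventional myosin, and Tnfsf13b encodes the B-cell survival factor BAFF. No role is given here for Ankrd10, Tex29 and 1700016D06Rik. In bulk tissue, fewer cells of a type and less accessible chromatin per cell cannot be told apart.

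The stretches just upstream of 4 gene starts are shown because they belong to the genes on which the account turns: Rab20 and Arhgef7, whose surroundings held higher peaks in mutant hearts, Irs2, the only other gene here with an E-box in this window, and Ing1, whose start carried the strongest peak of the domain. Each is the 250 bases before a RefSeq start (GRCm38.p6), 5′ to 3′ on the strand of the gene, with matches to searched motifs in capitals on either strand: the E-box CACGTG, the hypoxia response core ACGTG (contained in the E-box), the GC box GGGCGG, the AP-1 site TGACTCA and the TEAD site CATTCC.
Rab20 (chr8:11478641-11478890, minus strand): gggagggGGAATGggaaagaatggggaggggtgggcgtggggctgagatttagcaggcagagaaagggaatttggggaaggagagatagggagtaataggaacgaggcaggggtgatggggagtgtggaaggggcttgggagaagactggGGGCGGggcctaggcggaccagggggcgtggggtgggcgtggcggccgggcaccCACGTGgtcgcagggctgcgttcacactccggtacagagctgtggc
Irs2 (chr8:11008930-11009179, minus strand): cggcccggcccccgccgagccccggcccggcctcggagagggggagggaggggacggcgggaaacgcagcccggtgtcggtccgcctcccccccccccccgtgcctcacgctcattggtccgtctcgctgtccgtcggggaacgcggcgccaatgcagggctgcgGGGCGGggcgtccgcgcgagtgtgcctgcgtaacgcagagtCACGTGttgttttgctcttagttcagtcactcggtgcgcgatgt
Arhgef7 (chr8:11727808-11728057, plus strand): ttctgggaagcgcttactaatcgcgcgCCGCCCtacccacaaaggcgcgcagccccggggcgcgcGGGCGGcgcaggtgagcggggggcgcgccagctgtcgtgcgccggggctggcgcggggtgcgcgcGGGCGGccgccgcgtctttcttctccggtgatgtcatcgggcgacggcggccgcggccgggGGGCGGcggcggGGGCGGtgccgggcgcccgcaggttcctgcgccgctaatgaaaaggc
Ing1 (chr8:11555512-11555761, plus strand): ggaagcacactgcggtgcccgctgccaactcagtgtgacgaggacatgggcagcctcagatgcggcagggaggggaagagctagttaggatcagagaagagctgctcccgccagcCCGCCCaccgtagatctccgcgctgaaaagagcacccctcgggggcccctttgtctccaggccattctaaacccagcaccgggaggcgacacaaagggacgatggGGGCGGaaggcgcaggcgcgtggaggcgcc
The Rab20 window held 1 E-box, 1 GC box and 1 TEAD match, the Irs2 window held 1 E-box and 1 GC box, the Arhgef7 window held 5 GC boxes and the Ing1 window held 2. In Rab20 and Irs2 the ACGTG core lies inside the E-box, once on each strand. Among 32851 such windows of RefSeq genes, 6.02% held an E-box, 16.6% an ACGTG core, 32.7% a GC box, 4.46% an AP-1 site and 12.6% a TEAD site. Of the 13 genes of the domain (22 windows, since some genes have several starts), 2 held an E-box, 9 a GC box, 2 a TEAD match and 1 an AP-1 match in any window. These are counts of genes, while the shares above are of single windows, so they are not compared. Arhgef7 and Ing1 have further starts, whose windows differ in their matches and are not printed. These are matches of letters and say nothing about binding. G and C made up 65.2% of the Rab20 window, 72.8% of the Irs2 window, 78.0% of the Arhgef7 window and 65.6% of the Ing1 window, against a median of 52.4% over all windows.

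Counts in peaks totalled 16740589 and 15945420 in the mutant libraries, against 17508230 and 19091969 in the wild-type libraries. Accessibility is given as CPM (counts in a peak relative to all counts in peaks of that library, per 1000000) after scaling by the trimmed mean of M-values, and fold changes are log2 values of Carm1 mutant over wild type from edgeR with their standard errors (SE). The median domain peak was 623 bp wide, against 532 bp for all peaks, and domain peaks covered 178 kb. Their mean accessibility over the 4 libraries ranged 1.54 to 181 CPM with a median of 5.84 CPM, against 5.54 CPM for all peaks. Peaks lay a median of 1602 bp apart, and a stretch of 333265 bp between 10053877 and 10387142 around the start of Myo16 held none. Gene ends were sparse: 16 peaks (7.34%) lay within 1 kb of either end of a protein-coding gene, against 18.2% of all peaks, and 58 lay more than 50 kb from any. Of the 218 peaks, 149 had their centre within a gene body, and 90 of these were within Col4a1 or Col4a2.

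The domain as a whole took nearly the same share of counts in every library. It held 0.2509% and 0.2535% of counts in mutant hearts, against 0.2469% and 0.2492% in wild-type hearts. The median log2 fold change was 0.01 over its 218 peaks and 0.00 over all peaks. Called here means an edgeR quasi-likelihood adjusted p under 0.05, with adjustment over the whole table. By this rule 17 peaks (7.80%) were called higher in mutant hearts, where 3.05% of all peaks were, and 4 (1.83%) were called lower, where 2.45% of all peaks were. Both mutant libraries lay above both wild-type libraries at 72 peaks (25.8% of all peaks did so) and below them at 55 (25.7% of all peaks), and the genotypes overlapped at 91. Since the domain was chosen on this contrast, nothing is read from these shares. The 17 calls had log2 fold changes between 0.62 and 1.89 and the 4 lower ones between -1.69 and -0.87. Without wild-type replicate 1 there were 6 higher and 1 lower calls, and without wild-type replicate 2 there were 6 and 0. DESeq2 called 10 higher and 2 lower.

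The calls were unevenly placed. Of the 17 higher peaks, 8 lay in the 48.2 kb between the end of Col4a2 and the start of Naxd, a stretch that holds Rab20 and was delimited after its values had been seen. The 9 others were spread over the rest of the domain, where they made up 4.46% of 202 peaks and 4 (1.98%) were lower. In the 2 Mb before the domain, 0 of 47 peaks were called higher and 2 (4.26%) lower, with a median log2 fold change of -0.22. In the 2 Mb after it, 4 of 137 (2.92%) were higher and 7 (5.11%) lower, with a median of 0.09. Of all peaks, 3.05% were called higher and 2.45% lower. With so few calls, no contrast between the domain and the stretches beside it is read from these counts. Called peaks were of ordinary strength: mean accessibility had a median of 5.08 CPM over the 17 higher peaks, 4.29 CPM over the 4 lower peaks and 5.97 CPM over the 197 that were not called. None of the 10 peaks of 2 kb or more was called, and their log2 fold changes ran between -0.44 and 0.57.

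**Figure D1:**
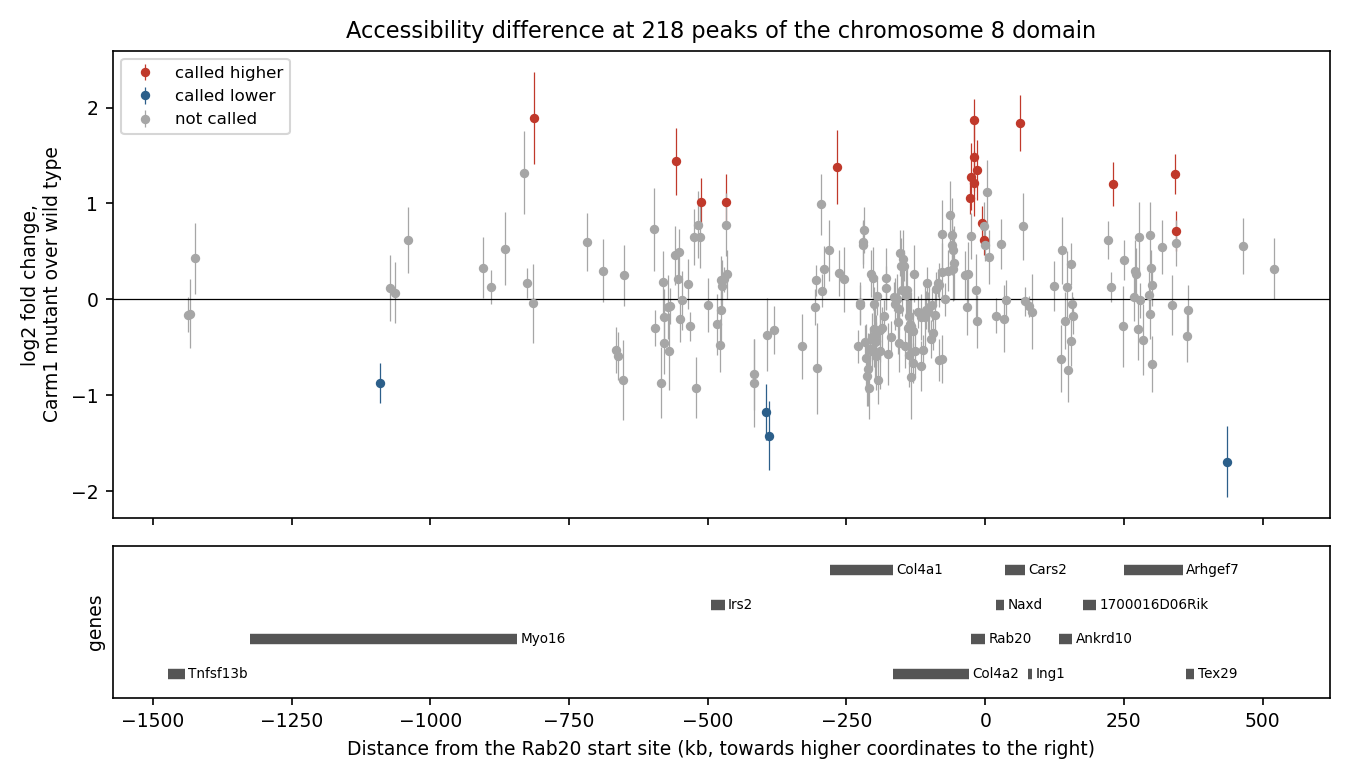
Log2 fold change of Carm1 mutant over wild type (y axis, bars are SE) at the 218 peaks, by distance from the Rab20 start (x axis, kb), with the 13 protein-coding genes drawn to scale below. Of the 17 higher peaks, 8 stand together around the Rab20 gene, while the 90 peaks within Col4a1 and Col4a2 to their left scatter around a median of -0.10.

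Rab20 and its surroundings were more accessible in mutant hearts. Summed over the 16 peaks between Col4a2 and the start of Naxd, accessibility was 290.3 and 238.6 CPM in mutant hearts, against 167.7 and 152.6 CPM in wild-type hearts, with a mean of 264.5 ± 36.6 CPM in mutant and 160.2 ± 10.7 CPM in wild-type hearts (SD, n = 2 each) and a log2 ratio of 0.72. These peaks held 11.4% and 9.35% of domain counts in mutant hearts, against 6.86% and 6.22% in wild-type hearts. Of the 16 peaks, 8 were called higher and 0 lower, where 3.05% and 2.45% of all peaks were. Both mutant libraries stood above both wild-type libraries at 12 and below them at 1, where 25.8% and 25.7% of all peaks did so. The stretch was delimited after its values had been seen, so nothing is read from these counts. The median log2 fold change was 0.78 over the 16 peaks. The other 202 domain peaks summed to 2264 and 2312 CPM in mutant hearts, against 2278 and 2303 CPM in wild-type hearts, with a median log2 fold change of -0.03. The number called higher around Rab20 was 3 without wild-type replicate 1, 2 without wild-type replicate 2, 8 without mutant replicate 1 and 10 without mutant replicate 2, and the median log2 fold change lay between 0.63 and 0.90 under these 4 settings. The replicates also differed here: replicate 2 was lower than replicate 1 at 12 of the 16 peaks in mutant hearts and at 12 in wild-type hearts.

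The peak with the largest log2 fold change around Rab20 lay inside the gene, 20.8 kb downstream of its start (chr8:11457263-11458319). It had 34.4 and 24.3 CPM in mutant hearts, against 9.34 and 6.76 CPM in wild-type hearts, a log2 fold change of 1.87 (SE 0.22) or 3.65-fold. Even the lower mutant library was well above both wild-type libraries. The 2 peaks next to it, at chr8:11458438-11458936 and chr8:11459054-11459486, were weaker. The first had 5.05 and 3.91 CPM in mutant hearts, against 1.75 and 2.12 CPM in wild-type hearts, with a log2 fold change of 1.21 (SE 0.34). The second had 4.99 and 3.91 CPM in mutant hearts, against 1.64 and 1.55 CPM in wild-type hearts, with a log2 fold change of 1.48 (SE 0.35). Both kept the genotypes apart, as all 21 called peaks of the domain did. Neither call held in every fit with a library left out. The same limit applies to the other calls around Rab20, except those at chr8:11457263-11458319 and chr8:11450183-11451658.

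Further peaks inside Rab20 were also higher. Near the start, chr8:11473061-11474378 had 40.1 and 31.3 CPM in mutant hearts, against 20.1 and 21.0 CPM in wild-type hearts (log2 fold change 0.80, SE 0.17). At chr8:11476350-11477479, 1.7 kb into the gene, the values were 40.9 and 36.5 CPM in mutant hearts, against 26.0 and 24.4 CPM in wild-type hearts (0.62, SE 0.16). In the middle of the gene the changes were mixed. The peak chr8:11463408-11463956 had 6.20 and 5.36 CPM in mutant hearts, against 2.38 and 2.17 CPM in wild-type hearts (1.35, SE 0.31). Its neighbour at chr8:11464197-11464909 went the other way without being called, with 4.01 and 5.30 CPM in mutant hearts, against 5.38 and 5.57 CPM in wild-type hearts (-0.23, SE 0.28). The small peak chr8:11461892-11462164 overlapped between genotypes, with 2.43 and 2.46 CPM in mutant hearts, against 2.55 and 2.01 CPM in wild-type hearts (0.10, SE 0.37). Thus 7 of the 10 peaks centred in Rab20 were called higher, where 3.05% of all peaks were. The domain was chosen for higher counts around this gene, so nothing is read from that count. The other 3 were not called, the third being chr8:11475094-11476164 (0.77, SE 0.24). There the 10.6 and 11.9 CPM in mutant hearts lay above the 7.41 and 5.83 CPM in wild-type hearts.

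Beyond the 3′ end of Rab20, which faces the end of Col4a2, a strong peak stood 896 bp from the Col4a2 end at chr8:11450183-11451658. It had 43.1 and 35.2 CPM in mutant hearts, against 18.3 and 19.2 CPM in wild-type hearts, with a log2 fold change of 1.06 (SE 0.17). By nearest gene end it is assigned to Col4a2, not Rab20. Just inside the end of Rab20, chr8:11453636-11454262 had 4.62 and 4.23 CPM in mutant hearts, against 2.09 and 1.55 CPM in wild-type hearts (1.28, SE 0.35). Between these, chr8:11452105-11453161 was not called (0.66, SE 0.24), although its 9.67 and 11.1 CPM in mutant hearts lay above the 7.41 and 5.78 CPM in wild-type hearts.

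The Rab20 start itself was not called. Its peak, chr8:11477689-11480046, covers the window printed above with its E-box and the start of the long noncoding RNA E230013L22Rik, and had 40.6 and 31.7 CPM in mutant hearts, against 26.3 and 22.6 CPM in wild-type hearts. The genotypes did not overlap and the log2 fold change was 0.57 (SE 0.17). It passed the threshold with a replicate block, with cyclic loess offsets and without mutant replicate 2. Upstream of the start, chr8:11481923-11482630 had 7.91 and 6.44 CPM in mutant hearts, against 4.58 and 2.06 CPM in wild-type hearts (1.12, SE 0.33, not called), the 2 wild-type libraries differing from each other more than 2-fold. It passed the threshold with RLE size factors, limma voom and a replicate block, and without mutant replicate 2 or wild-type replicate 1. The next peak, chr8:11486071-11486533, overlapped between genotypes, with 9.37 and 5.62 CPM in mutant hearts, against 6.05 and 5.01 CPM in wild-type hearts (0.44, SE 0.28). The Naxd start, which closes the stretch at chr8:11496874-11498023, had 26.4 and 19.3 CPM in mutant hearts, against 26.5 and 25.1 CPM in wild-type hearts (-0.17, SE 0.18). There the genotypes overlapped.

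**Figure D2:**
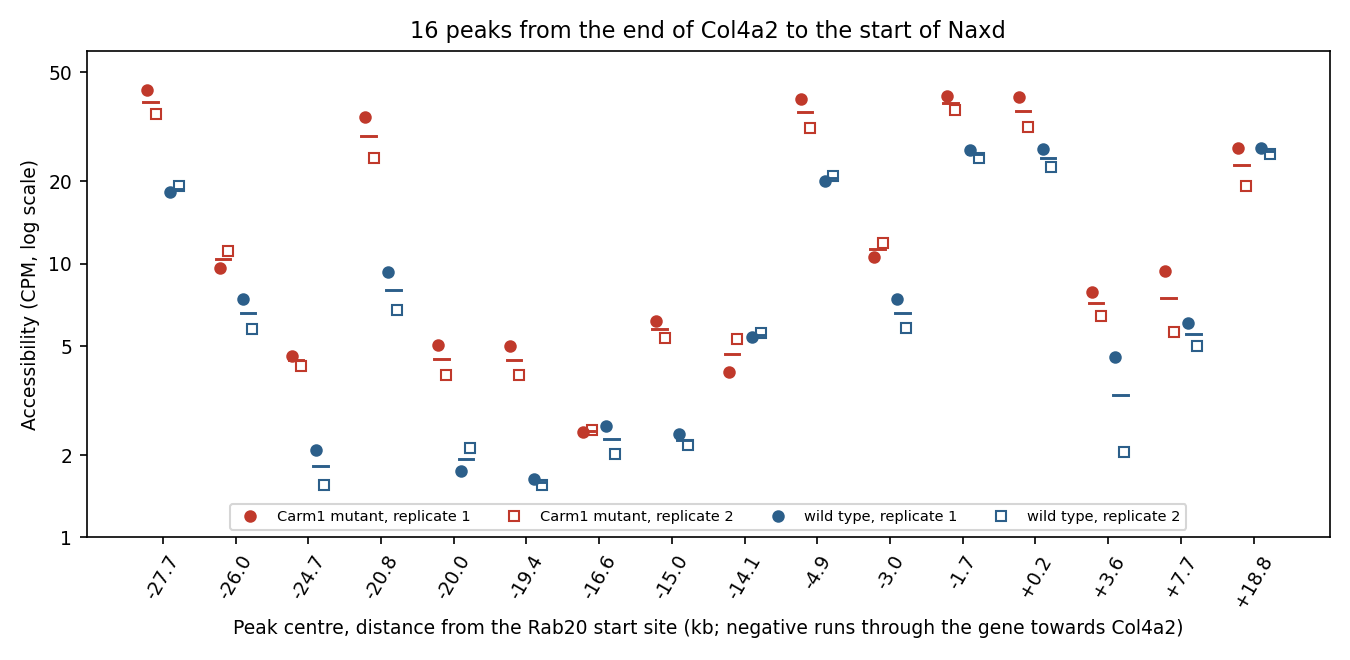
Accessibility (y axis, CPM, log scale) of each library at the 16 peaks between the end of Col4a2 and the start of Naxd, ordered by distance of the peak centre from the Rab20 start (x axis, kb); horizontal bars are the mean of 2 libraries. Mutant and wild-type libraries are apart at most peaks from the end of Col4a2 on the left to 3.6 kb upstream of the Rab20 start, and interleave at the Naxd start on the right.

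Summed by gene, with each peak assigned to the nearest gene end within 50 kb (160 of 218 peaks), Rab20 had the highest log2 ratio of the 13 genes. The domain was chosen for higher counts around Rab20, so nothing is read from this rank. The 14 peaks of Rab20 summed to 220.9 and 184.1 CPM in mutant hearts, against 123.0 and 108.3 CPM in wild-type hearts. The means were 202.5 ± 26.0 CPM in mutant and 115.6 ± 10.4 CPM in wild-type hearts (SD, n = 2 each), a log2 ratio of 0.81. The ratio was 0.83 when peaks were assigned within 10 kb, over 12 of the same 14 peaks. The single peak of 1700016D06Rik gave 0.62, the 20 peaks of Arhgef7 gave 0.35 and the 6 of Myo16 gave 0.29. The Myo16 ratio was 0.13 when peaks inside a gene were given to that gene. For the other 9 genes the log2 ratio of sums ran between -0.24 (Tex29) and 0.17 (Cars2).

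**Figure D3:**
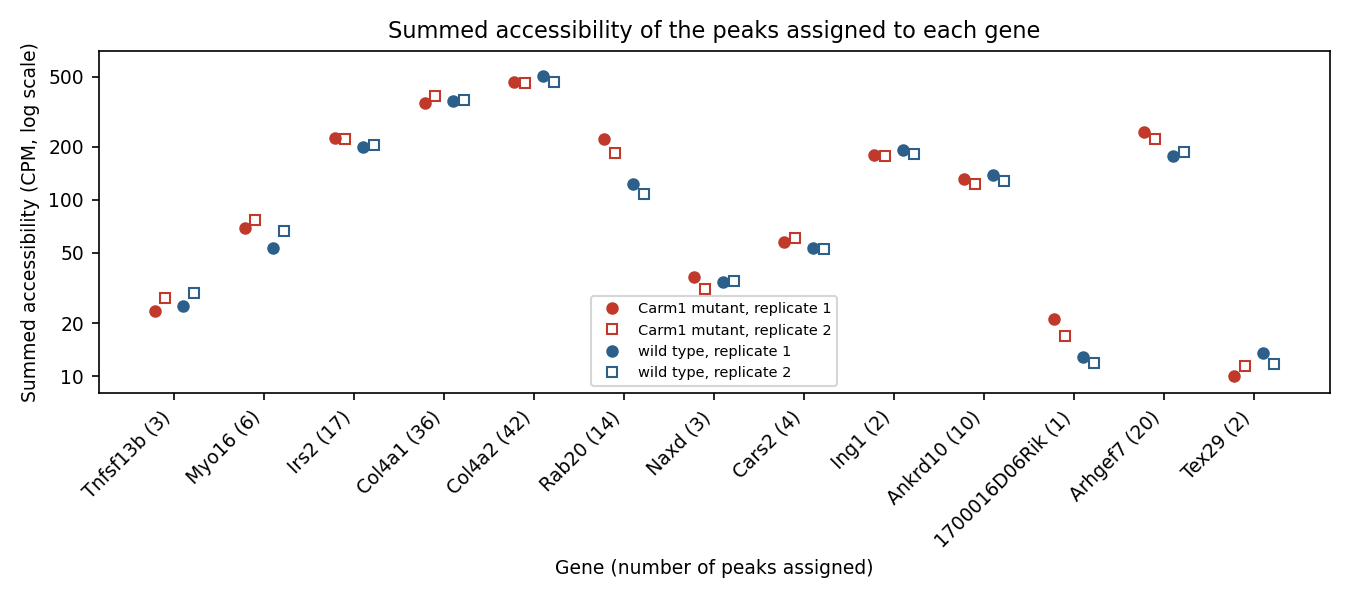
Summed accessibility (y axis, CPM, log scale) of the peaks assigned to each of the 13 genes in chromosome order (number of peaks in brackets), per library. The mutant libraries lie clearly above the wild-type libraries for Rab20, Arhgef7 and the single peak of 1700016D06Rik, and close to them for Col4a1, Col4a2, Ing1 and Ankrd10.

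Few peaks of the type IV collagen pair next to Rab20 were called. The gene starts lie 21 bp apart under 1 peak of 4317 bp (chr8:11311509-11315826), which had 90.3 and 68.3 CPM in mutant hearts, against 88.4 and 67.2 CPM in wild-type hearts (log2 fold change 0.03, SE 0.15). Here replicate 1 exceeded replicate 2 in both genotypes by more than the genotypes differed. Within the bodies of Col4a1 and Col4a2, 1 of 90 peaks was called higher (1.11%, against 3.05% of all peaks) and 0 lower, with a median log2 fold change of -0.10. Both mutant libraries lay above both wild-type libraries at 20 of these 90 peaks and below them at 33, where 25.8% and 25.7% of all peaks did so. The domain was chosen on this contrast, and nothing is read from the difference.

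Within Col4a1 the 35 peaks summed to 317.9 and 356.4 CPM in mutant hearts, against 393.8 and 382.5 CPM in wild-type hearts, with a median log2 fold change of -0.32. Within Col4a2 the 55 peaks summed to 665.4 and 655.2 CPM in mutant hearts, against 704.1 and 660.0 CPM in wild-type hearts, with a median of -0.06. Both mutant sums were below both wild-type sums in Col4a1, and the libraries overlapped in Col4a2. The second strongest peak of the pair, chr8:11381419-11383901 in Col4a2, had 47.5 and 58.5 CPM in mutant hearts, against 44.6 and 65.5 CPM in wild-type hearts and overlapped between genotypes. The 1 called peak, chr8:11211108-11211461 in Col4a1, was weak, with 2.62 and 4.86 CPM in mutant hearts, against 1.36 and 1.50 CPM in wild-type hearts (1.38, SE 0.39). The call did not hold under DESeq2 or limma voom, nor in every fit with a library left out. This peak is outside the naming rule and is named because it is the only one called.

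**Figure D4:**
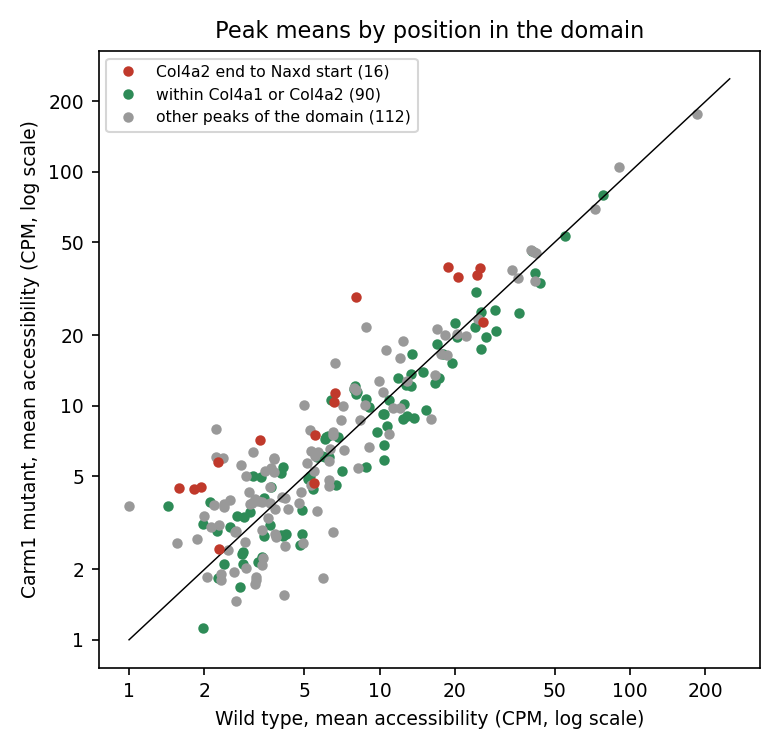
Mean accessibility in Carm1 mutant hearts (y axis, CPM, log scale) against wild-type hearts (x axis, CPM, log scale) for the 218 peaks, each point a mean of 2 libraries; the line marks equal values. Most of the 16 peaks between Col4a2 and Naxd lie above the line, and those within Col4a1 or Col4a2 lie around it.

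Irs2, which lies before the collagen pair, had a strong start peak of 5099 bp (chr8:11005137-11010236), the widest of the domain. It had 111 and 98.6 CPM in mutant hearts, against 86.1 and 94.7 CPM in wild-type hearts (log2 fold change 0.21, SE 0.13, not called), with the genotypes apart by a small margin. The 17 peaks assigned to Irs2 summed to 224.7 and 220.5 CPM in mutant hearts, against 198.1 and 204.8 CPM in wild-type hearts, a log2 ratio of 0.14. In the interval between Myo16 and Irs2, 3 of 33 peaks were called higher (9.09%, against 3.05% of all peaks). The one of these that the naming rule picks, chr8:10921723-10922224, had 4.38 and 7.70 CPM in mutant hearts, against 1.70 and 2.74 CPM in wild-type hearts (1.44, SE 0.35). The largest log2 fold change of the domain, 1.89 (SE 0.48), was in the same interval at chr8:10664926-10665267, a peak named after its values were seen. Mutant replicate 2 stood far above the other libraries there, with 1.70 and 5.74 CPM in mutant hearts, against 0.962 and 1.03 CPM in wild-type hearts. That call did not hold under DESeq2 or limma voom, nor in every fit with a library left out.

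Arhgef7 had 3 of 20 assigned peaks called higher, the most after the 7 of 14 of Rab20, where 3.05% of all peaks were. A site 19381 bp before the gene (chr8:11707633-11708620) had 17.6 and 12.9 CPM in mutant hearts, against 6.73 and 6.55 CPM in wild-type hearts (log2 fold change 1.20, SE 0.23). A site inside the gene (chr8:11820134-11821012) had 24.5 and 19.1 CPM in mutant hearts, against 9.45 and 8.15 CPM in wild-type hearts (1.31, SE 0.21). At both sites the genotypes did not overlap, as at all 21 called peaks of the domain. The call at the first site did not hold in every fit with a library left out. The peak beside the second, chr8:11821361-11822262, was also called, and is named after its values were seen, with a mean of 17.4 ± 0.205 CPM in mutant hearts and 10.6 ± 1.90 CPM in wild-type hearts (SD, n = 2 each; 0.71, SE 0.21). The call at chr8:11821361-11822262 was lost under DESeq2, under limma voom and with scaling by total counts. It also did not hold in every fit with a library left out. The Arhgef7 start (chr8:11727164-11729053), whose GC-rich window is printed above, was not called. It had 18.0 and 14.1 CPM in mutant hearts, against 12.6 and 11.6 CPM in wild-type hearts (0.41, SE 0.21). All 20 peaks assigned to Arhgef7 summed to 243.4 and 221.6 CPM in mutant hearts, against 177.2 and 186.9 CPM in wild-type hearts.

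The strong gene starts between Rab20 and Arhgef7 had log2 fold changes close to 0. The Ing1 start (chr8:11554597-11559025) was the strongest peak of the domain, with 178 and 175 CPM in mutant hearts, against 190 and 181 CPM in wild-type hearts (log2 fold change -0.07, SE 0.11). The Ankrd10 start (chr8:11634275-11636147) had 71.7 and 67.8 CPM in mutant hearts, against 72.0 and 72.6 CPM in wild-type hearts (-0.05, SE 0.13). The Cars2 start (chr8:11549744-11551248) had 35.3 and 35.0 CPM in mutant hearts, against 37.5 and 34.0 CPM in wild-type hearts (-0.02, SE 0.15). At Ing1 and Ankrd10 the mutant libraries were the lower ones, by margins smaller than the SE of the fold change. One weak site within Cars2, chr8:11542041-11542459, did differ, with 7.54 and 8.33 CPM in mutant hearts, against 2.38 and 2.06 CPM in wild-type hearts (1.84, SE 0.29, 3.57-fold). The genotypes did not overlap there, as at all 21 called peaks of the domain. Of the 13 genes, 9 had a start under a peak and 4 did not. No peak lay within 1 kb of an end of Tnfsf13b, Myo16, 1700016D06Rik or Tex29.

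All 4 lower peaks were weak to moderate and lay more than 50 kb from any protein-coding gene end, where 58 of the 218 domain peaks lay. With only 4 calls, nothing is read from their position. Inside Myo16, chr8:10387142-10387565 had 8.82 and 8.71 CPM in mutant hearts, against 15.3 and 16.7 CPM in wild-type hearts (log2 fold change -0.87, SE 0.21). A pair between Irs2 and Col4a1, at chr8:11084019-11084615 and chr8:11088940-11089617, had log2 fold changes of -1.17 (SE 0.29) and -1.42 (SE 0.36). The first had 2.74 and 3.03 CPM in mutant hearts, against 5.94 and 7.07 CPM in wild-type hearts. The second had 1.28 and 1.83 CPM in mutant hearts, against 3.96 and 4.39 CPM in wild-type hearts. None of these 3 calls held in either fit that left out a wild-type library. The fourth, chr8:11913376-11914005 beyond Tex29, had 1.16 and 2.52 CPM in mutant hearts, against 4.75 and 7.12 CPM in wild-type hearts (-1.69, SE 0.37), and was not called without wild-type replicate 2. Of the 20 windows of 100 kb in the domain, 18 held peaks, and their log2 ratios of summed accessibility ran from -0.87, in the window with only the Myo16 peak, to 0.58.

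None of the peaks at the limits of the domain was called. The first peak inside, chr8:10040739-10041301, had a log2 fold change of -0.16 and the last peak before it, chr8:9977579-9978797, one of -0.02. At the other limit the last peak inside, chr8:11999782-12000112, had 0.32 and the first peak after it, chr8:12010547-12010887, had 0.70, with 3.83 and 3.91 CPM in mutant hearts, against 2.43 and 2.32 CPM in wild-type hearts.

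Peaks of other genes in the same pathways were compared between genotypes over the whole table, outside the domain. Of 296 peaks assigned to 26 other basement membrane genes, 14 (4.73%) were called higher and 10 (3.38%) lower, where 3.05% and 2.45% of all peaks were (median log2 fold change 0.04). Of 130 peaks of other endosomal Rab GTPases and effectors, 3 (2.31%) were higher and 3 (2.31%) lower (-0.09), and of 289 peaks of insulin and IGF signalling genes, 4 (1.38%) were higher and 12 (4.15%) lower (-0.09). Of 106 peaks of genes around PIX, GIT and PAK kinases, 2 (1.89%) were higher and 0 lower (-0.04). None of 50 peaks of ING and acetylation complex genes was called by edgeR, DESeq2 or limma voom, with 9, 5 and 8 peaks at an unadjusted p under 0.05, of which 7, 4 and 7 were lower. Of all peaks, 21.8% by edgeR, 14.5% by DESeq2 and 21.3% by limma voom were under that threshold. Those that were also lower made up 10.4%, 6.71% and 10.2% of all peaks, in the same order. No lean is read from so few peaks. Over the 5 lists there were 23 higher and 25 lower calls. Leaving out wild-type replicate 1 reduced these to 6 and 5, and leaving out wild-type replicate 2 to 3 and 4.

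Among the called peaks of these lists, chosen by smallest p, a site in Lama4, a laminin chain of vessel basement membranes, was lower in mutant hearts (chr10:38980870-38981438). It had 5.90 and 6.44 CPM in mutant hearts, against 16.9 and 13.2 CPM in wild-type hearts (log2 fold change -1.28, SE 0.23, edgeR adjusted p 0.00385). A site in Pik3r1, the regulatory subunit of PI3-kinase, was lower as well (chr13:101760384-101761989), with 9.79 and 14.1 CPM in mutant hearts, against 29.6 and 28.3 CPM in wild-type hearts (-1.28, SE 0.20, edgeR adjusted p 0.00134). Higher sites lay near Pak3, a kinase downstream of Rac and Cdc42, and near the growth factor gene Igf2. The Pak3 site (chrX:143501136-143501739) had 12.2 and 11.4 CPM in mutant hearts, against 3.51 and 2.99 CPM in wild-type hearts (1.86, SE 0.26, edgeR adjusted p 0.000595); it is on the X chromosome, and the labels do not give the sex of the animals. The Igf2 site (chr7:142645013-142645355) had 4.08 and 3.22 CPM in mutant hearts, against 0.566 and 0.929 CPM in wild-type hearts (2.27, SE 0.42, edgeR adjusted p 0.0043). Among the Rab genes, a peak at an end of Rab38 (chr7:88430160-88430550) was higher (1.73, SE 0.41, edgeR adjusted p 0.0175) and one in Rab31 (chr17:65674631-65675265) was lower (-1.07, SE 0.28, edgeR adjusted p 0.03). A site in Lama5, another laminin chain, was lower (-1.36, SE 0.29, edgeR adjusted p 0.0104) and one near Ptk2, the focal adhesion kinase, was higher (0.99, SE 0.25, edgeR adjusted p 0.0271). Rab31 and Lama5 each also had at least 1 peak called higher. At each of these 8 sites the genotypes did not overlap. The sites were picked by smallest p, which favours such peaks, so nothing is read from it.

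The cell content of the libraries was read from peaks of marker genes. The strongest gene-end peaks of the cardiomyocyte genes Myh6 (57.6 and 67.3 CPM in mutant hearts, against 60.2 and 65.3 CPM in wild-type hearts) and Tnnt2 were strong in all libraries, as the heart label requires. Summed accessibility over 157 peaks of 8 cardiomyocyte genes was 2897 and 2466 CPM in mutant hearts, against 2464 and 2331 CPM in wild-type hearts, with 7 peaks (4.46%) called higher and 2 (1.27%) lower, where 3.05% and 2.45% of all peaks were. Over 119 peaks of 9 endothelial genes it was 1088 and 1084 CPM in mutant hearts, against 1374 and 1126 CPM in wild-type hearts, with 2 (1.68%) higher and 7 (5.88%) lower. For cardiomyocyte genes mutant replicate 1 thus summed above both wild-type libraries, and mutant replicate 2 was level with wild-type replicate 1. For endothelial genes both mutant libraries summed below both wild-type libraries, wild-type replicate 2 being close to them. All peaks together, after scaling, summed to 1018000 and 1006000 CPM in mutant hearts, against 990600 and 985300 CPM in wild-type hearts. Small gaps between sums are therefore not read. Mural cell genes (71 peaks, 4 or 5.63% higher, 0 lower) summed to 521.2 and 529.7 CPM in mutant hearts, against 476.4 and 487.8 CPM in wild-type hearts. Fibroblast genes (51 peaks, 1 or 1.96% higher, 0 lower) summed to 337.2 and 399.4 CPM in mutant hearts, against 309.7 and 345.3 CPM in wild-type hearts. Schwann and neuronal genes (12 peaks, 1 higher) summed to 161.3 and 139.6 CPM in mutant hearts, against 119.4 and 114.7 CPM in wild-type hearts, with a median log2 fold change of 0.35 over their peaks. Both mutant libraries were thus above both wild-type libraries for mural and for Schwann and neuronal genes, and the genotypes overlapped for fibroblast genes. Leukocyte genes (18 peaks, 1 higher) summed to 200.3 and 203.4 CPM in mutant hearts, against 188.4 and 182.4 CPM in wild-type hearts. Epicardial genes (20 peaks, 1 lower) summed to 168.2 and 162.4 CPM in mutant hearts, against 175.2 and 171.7 CPM in wild-type hearts. The single erythroid peak had 19.53 and 18.99 CPM in mutant hearts, against 16.97 and 12.33 CPM in wild-type hearts, and was not called. The mutant libraries were also above both wild-type libraries for leukocyte genes and the erythroid peak, and below them for epicardial genes. The mural, leukocyte and epicardial gaps are small and the erythroid one rests on 1 peak, so none is read. Median log2 fold changes were 0.15 over cardiomyocyte, -0.19 over endothelial and 0.13 over fibroblast peaks. They were 0.01 over mural, 0.09 over leukocyte and -0.07 over epicardial peaks. Peaks were assigned to 5 of 7 leukocyte genes, 5 of 6 Schwann and neuronal genes, 4 of 5 epicardial genes and 1 of 5 erythroid genes. The part of these differences in the result around Rab20 was not tested. The Carm1 start peak, at chr9:21545484-21546896, had 91.4 and 95.5 CPM in mutant hearts, against 90.1 and 89.5 CPM in wild-type hearts (0.06, SE 0.12, edgeR adjusted p 0.839). Accessibility of a start does not check whether a gene is mutated.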

How the data were processed

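ATAC-seq of heart was available as 1 peak count table with a column for each of the 4 libraries, assigned to genotypes by the sample titles. Per the submitters' processing notes, the build was mm10 and the tools included FastQC and Bowtie2 (no versions listed). The peak caller, the counter and any pooling before peak calling are not given in these sources. The deposited values are raw counts per peak, per the file headers and the whole-number values. Whether peak starts count from 0 or 1 is not given, so coordinates are as deposited.

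The counts were fitted with edgeR 4.0.16 (quasi-likelihood, TMM scaling, genotype as the only term, 2 residual degrees of freedom) over all 87948 peaks with Benjamini-Hochberg adjustment; filterByExpr removed 0 peaks. The fit was tried on simulated counts with known changes. CPM are TMM-scaled. Peaks were assigned to the nearest end of a RefSeq protein-coding gene (GRCm38.p6, the assembly of mm10) within 50 kb. DESeq2 1.42.0, limma 3.58.1 voom, other scalings and filters, a replicate block, an adjusted p under 0.1, other assignments and leaving out each library were the alternatives. Between replicates, a chi-square of the counts over peaks gave 5.76 per degree of freedom for mutant and 4.09 for wild-type hearts, so no pair was 1 library deposited in duplicate. The median count per peak was 90 and 91 in mutant and 96 and 106 in wild-type libraries.

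The domain, the stretch around Rab20, the gene lists and the rules were chosen with earlier results of these data known. Peaks named are the strongest peak at a gene end for each gene, all assigned to Rab20, the 10 called higher and 10 called lower with the smallest p, the 5 strongest, those next to the limits and 2 for each pathway list; others are marked as named after their values were seen. Peak sequences were not used here, since no genome was at hand.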

Additional observations from a re-analysis of the deposited data

How the results depend on the processing

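With all libraries the domain held 17 higher and 4 lower calls. DESeq2 gave 10 and 2, the replicate block gave 24 and 11, an adjusted p under 0.1 gave 24 and 11, and leaving out each library gave 6 to 21 higher and 0 to 11 lower. The calls around Rab20 numbered 8 higher, with 6 under DESeq2, 11 with the block and 2 to 10 when each library was left out; 0 were lower in every setting run. Of the 17 higher calls, 4 held with each library left out in turn and 10 under DESeq2; of the 4 lower, 0 and 2. The 23 higher and 25 lower calls of the pathway lists became 5 and 13 under DESeq2, 37 and 45 with the block, and 3 to 38 and 4 to 43 when each library was left out. These counts move with the whole table, where DESeq2 called 1.55% of peaks higher and 1.15% lower and the fit without wild-type replicate 2 called 0.73% and 0.414%. The log2 ratio of summed accessibility moved to 0.21 for Irs2 and 0.10 for Col4a2 within 10 kb, and to -0.12 for Col4a1 when peaks inside a gene went to that gene, which also took Myo16 to 0.13. All 21 called peaks kept the sign of their log2 fold change in each fit run. At each of them both mutant libraries lay on one side of both wild-type libraries. Leaving out a library could therefore not turn the sign, and nothing is read from it. The domain median log2 fold change lay between -0.02 and 0.09. Replicates share only a number in the labels; the deviations of same-numbered libraries correlated at 0.107 over all peaks and 0.19 over the domain, a single value from 2 pairs, so the block is no paired design. The cause of these movements was not tested. With 2 libraries per genotype and a median of 90 to 106 counts per peak, weak peaks carried SEs of the log2 fold change near 0.35, against 0.11 at the strongest.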
